A study of Mus musculus with 7 samples.

Results

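A set of 9 cytokine genes was followed in type 2 innate lymphoid cells (ILC2s) of the mouse heart: Il4, Il5, Il13, Il9, Il3, Il6, Csf2, Csf1 and Il2. They were chosen by gene symbol as the type 2 and growth factor cytokines, and all 9 were found among the 55335 genes of the deposited tables. Of these, 7 passed the filter on low counts, Il9 did not, and Il3 had no count in any library. RNA-seq covered 7 libraries: 3 came from naive hearts and 4 from heart allografts, that is, grafts from Balb/C donors placed in C57BL/6 (B6) recipients and taken on day 7 in a model that develops acute rejection. Cells were sorted as CD45+ Lineage- ST2+, and each library pooled the ILC2s of 4 to 7 hearts, so that pools and not single animals were the replicates. The labels gave neither the genotype or strain of the naive hearts nor the age or sex of any animal, nor whether the cells in a graft came from donor or recipient. In such bulk samples, fewer cells of a type and less RNA per cell cannot be told apart.

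ILC2s are lymphocytes without antigen receptors that answer to alarmins such as interleukin 33, which acts through ST2, and release type 2 cytokines within hours. Interleukin 5 sustains eosinophils, interleukin 13 acts on epithelium, fibroblasts and macrophages, and interleukin 4 drives type 2 differentiation of CD4+ T cells and class switching in B cells. GM-CSF, the product of Csf2, and M-CSF, the product of Csf1, support myeloid cells, and interleukin 2 supports T cell growth and regulatory T cells.

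Total counts ranged from 29107326 to 53044907 per library, so that a count of 0 allowed at most 0.0566 to 0.103 CPM. CPM is the count scaled to the library's deposited total, and this limit stands for 3 counts and covers counting error only. Naive replicate 2 stood apart. Its 8 ILC2 markers, Gata3 and Il1rl1 among them, summed to 169 CPM, against 4874 and 6762 CPM in naive replicates 1 and 3 and 4918 to 5518 CPM in the allografts. Its 7 kidney tubule genes summed to 9136 CPM, against 10.8 to 111 CPM elsewhere, and 26.5% of its counts were mitochondrial, against 2.04% to 3.11%. The remaining lists had 88.5 to 144 CPM of 5 B cell genes in the allografts and 0 to 117 CPM in the naive libraries. The 6 endothelial genes had 31.4 to 43.1 CPM in the allografts, against 15.2, 426 and 8.26 CPM in naive replicates 1 to 3. Naive replicates 1 and 3 in turn detected fewer genes (15820 and 13864, against 19235 to 21354 in the allografts and 20254 in naive replicate 2), which bears on every naive value at or near 0. The fold changes of the cytokines, and of the other genes where it matters, are therefore also given without naive replicate 2.

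Of the 9 genes, 5 lie together on chromosome 11 (GRCm38) within 664.3 kb, in the order Il4, Il13, Il5, Csf2 and Il3. Il4 (ENSMUSG00000000869) spans chr11:53602982-53618669 on the minus strand, and Il13 (ENSMUSG00000020383) spans chr11:53631324-53634702 on the same strand, 12.7 kb away. Il5 (ENSMUSG00000036117) lies on the plus strand at chr11:53720794-53725106, beyond Rad50. Csf2 (ENSMUSG00000018916) at chr11:54247271-54249667 and Il3 (ENSMUSG00000018914) at chr11:54265303-54267277 are both on the minus strand and 15.6 kb apart. Il6 is on chromosome 5, Il9 on chromosome 13, and Csf1 and Il2 on chromosome 3. The 250 bases before each start site of the 5 clustered genes are shown because 4 of these genes were transcribed and the fifth, Il3, was not detected. They were read 5′ to 3′ on the coding strand from RefSeq (GRCm38.p6): Il4 at chr11:53618666-53618915 (-), Il13 at chr11:53634703-53634952 (-), Il5 at chr11:53720544-53720793 (+), Csf2 at chr11:54249900-54250149 (-) and Il3 at chr11:54267280-54267529 (-). Capitals mark a match on either strand to the GATA motif GATAA or GATAG when an A or a T precedes it.
Il4: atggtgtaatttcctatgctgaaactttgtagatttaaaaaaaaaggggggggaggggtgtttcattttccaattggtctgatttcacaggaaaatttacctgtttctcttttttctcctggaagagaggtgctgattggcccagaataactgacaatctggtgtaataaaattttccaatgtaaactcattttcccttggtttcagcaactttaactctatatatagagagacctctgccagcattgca
Il13: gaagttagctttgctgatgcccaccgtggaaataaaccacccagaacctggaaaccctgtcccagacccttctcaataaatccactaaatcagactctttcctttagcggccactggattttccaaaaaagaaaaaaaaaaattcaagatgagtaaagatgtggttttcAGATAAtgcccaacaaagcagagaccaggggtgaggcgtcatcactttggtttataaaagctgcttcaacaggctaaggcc
Il5: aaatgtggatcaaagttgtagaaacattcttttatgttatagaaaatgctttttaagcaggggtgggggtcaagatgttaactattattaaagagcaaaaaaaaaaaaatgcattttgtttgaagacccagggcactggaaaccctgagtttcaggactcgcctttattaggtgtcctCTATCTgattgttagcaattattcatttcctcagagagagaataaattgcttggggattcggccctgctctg
Csf2: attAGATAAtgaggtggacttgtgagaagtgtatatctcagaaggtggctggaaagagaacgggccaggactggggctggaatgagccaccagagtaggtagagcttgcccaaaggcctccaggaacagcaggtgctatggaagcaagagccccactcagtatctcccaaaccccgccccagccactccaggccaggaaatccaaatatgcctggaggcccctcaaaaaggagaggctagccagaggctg
Il3: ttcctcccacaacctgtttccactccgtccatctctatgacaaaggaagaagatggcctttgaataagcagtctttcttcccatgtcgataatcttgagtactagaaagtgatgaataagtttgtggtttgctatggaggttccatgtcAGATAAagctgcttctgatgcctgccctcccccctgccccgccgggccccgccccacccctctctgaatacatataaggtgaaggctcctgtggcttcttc
A GATA match stood 72 bases before the start in Il5, 81 in Il13, 101 in Il3 and 247 in Csf2, and none was found in this window of Il4. The RefSeq start of Csf2 lies upstream of the GENCODE gene, so its window begins further out. Il3, without a read, thus also carried a GATA match, like 3 of its transcribed neighbours. Among all 9 cytokines, 5 had a GATA match, the other one being Il6, against 26.5% of 32851 promoter windows. On both strands, the NFAT core GGAAA was found in 9 of 9 (55.6% of all windows), the AP-1 motif TGANTCA in 2 (6.75%) and the STAT motif TTCNNNGAA in 0 (7.02%). NFAT and STAT matches can share bases. A match of letters is a description and not a binding site.

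Csf2 was the leading transcript among the 9 cytokines. On the scale that allows comparison between genes, FPKM (fragments scaled to gene length and library size), Csf2 reached 2727, 2299, 2497 and 2230 in allografts 1 to 4, against 673, 31.0 and 3493 in the naive pools 1 to 3. It was the highest of the 9 in every library. Its rank among all genes by FPKM was 13 to 19 in the allografts, 11 in naive replicate 3, 85 in naive replicate 1 and 1322 in naive replicate 2. Csf2 made up 85.0% to 87.0% of the summed FPKM of the 9 cytokines in the allografts, and 71.9%, 79.9% and 87.6% in the naive libraries.

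Il5 came next in 6 of 7 libraries. Its FPKM was 325, 227, 305 and 233 in the allografts, against 163, 2.32 and 256 in the naive pools, with ranks of 200 to 273 among all genes in the allografts. Il4 (37.0 to 52.5 FPKM in the allografts) and Il6 (43.4 to 46.1) followed and could not be ordered, since their ranges overlapped. Il2 (13.4 to 22.2) and Il13 (11.99 to 16.5) overlapped as well. Csf1 lay below all of these at 1.17 to 2.13 FPKM. In these grafts Il5 was thus 5.31 to 6.45 times Il4 per length, and Csf2 was 8.18 to 10.1 times Il5. The profile had a similar shape in the 4 allografts, whereas the naive libraries differed from each other. Naive replicate 1 had the order of allograft replicate 4 from Csf2 down to Il13, with Csf1 at 0. Naive replicates 2 and 3 had Il2 above Il4 and Il6.

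**Figure D1:**
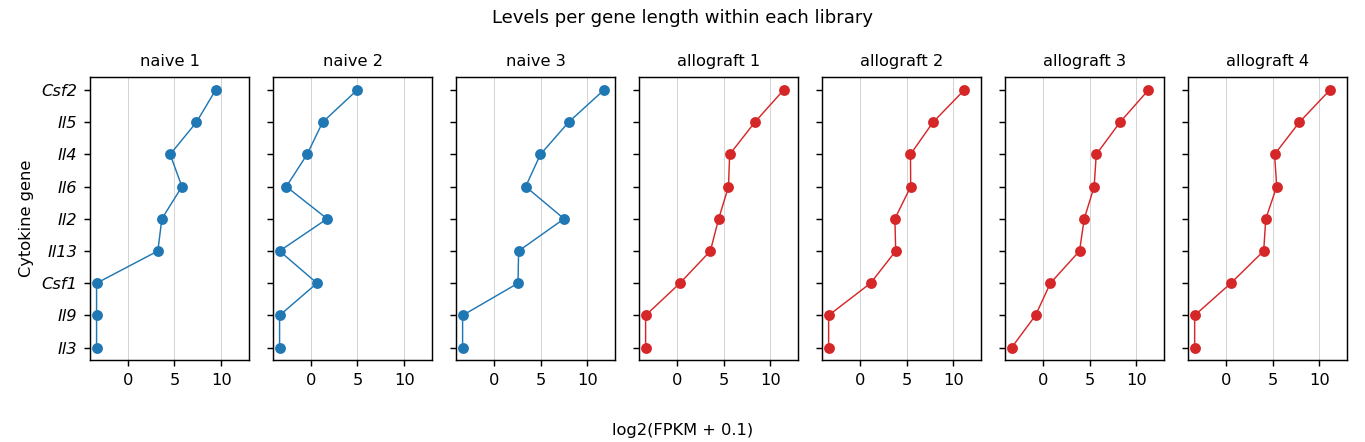
Levels of the 9 cytokines within each library as log2(FPKM + 0.1), naive libraries in blue and allografts in red. Csf2 leads in all 7 libraries, the 4 allograft profiles resemble each other, and naive replicate 3 has a peak at Il2 (183 FPKM).

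The first question was whether the type 2 cytokines Il4, Il5 and Il13 differed between ILC2s of the graft and of the resting heart. Il4 reached 71.8, 60.5, 74.0 and 52.4 CPM in allografts 1 to 4, against 32.4, 0.901 and 44.0 CPM in naive pools 1 to 3. Every allograft lay above every naive library. Il13 stood at 16.8, 19.8, 21 and 22.9 CPM in the allografts and at 12.7, 0 and 8.46 CPM in naive hearts, again without overlap. Il5 stood at 581, 404, 541 and 414 CPM in the allografts and at 286, 3.89 and 445 CPM in naive hearts, where naive replicate 3 lay within the allograft range. Of the 7 cytokines tested, 2 thus had every allograft above every naive library, against 12.5% of the 17015 genes tested, and 0 had every allograft below (2.15%).

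None of these differences passed the test across all genes. In edgeR's quasi-likelihood fit with Benjamini-Hochberg adjustment, the log2 fold change of allograft over naive was 1.29 for Il4 (SE 0.93, adjusted p = 0.743), 1.49 for Il13 (SE 1.51, adjusted p = 0.834) and 0.95 for Il5 (SE 1.05, adjusted p = 0.855). All 3 values were positive, with standard errors of similar size. Without naive replicate 2 the edgeR values were 0.71 for Il4 (SE 0.30, adjusted p = 0.250), 0.89 for Il13 (SE 0.42, adjusted p = 0.302) and 0.36 for Il5 (SE 0.29, adjusted p = 0.553). Each change became smaller and better determined, and Il4 and Il13 still showed no overlap. Of 18037 genes, 21% had every allograft above both remaining naive libraries and 7.15% below, the latter with 0 of the 7 cytokines. Of all genes, 0.0353% passed the adjusted threshold of 0.05 and 10.3% had an unadjusted p under 0.05. Without naive replicate 2 these shares were 3.1% and 20.2%. Of the 7 cytokines, 0 passed in either fit, 0 passed with DESeq2 (6.66% of genes with an adjusted p passed), and 0 had an unadjusted p under 0.05 in the edgeR fit with all libraries.

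**Figure D2:**
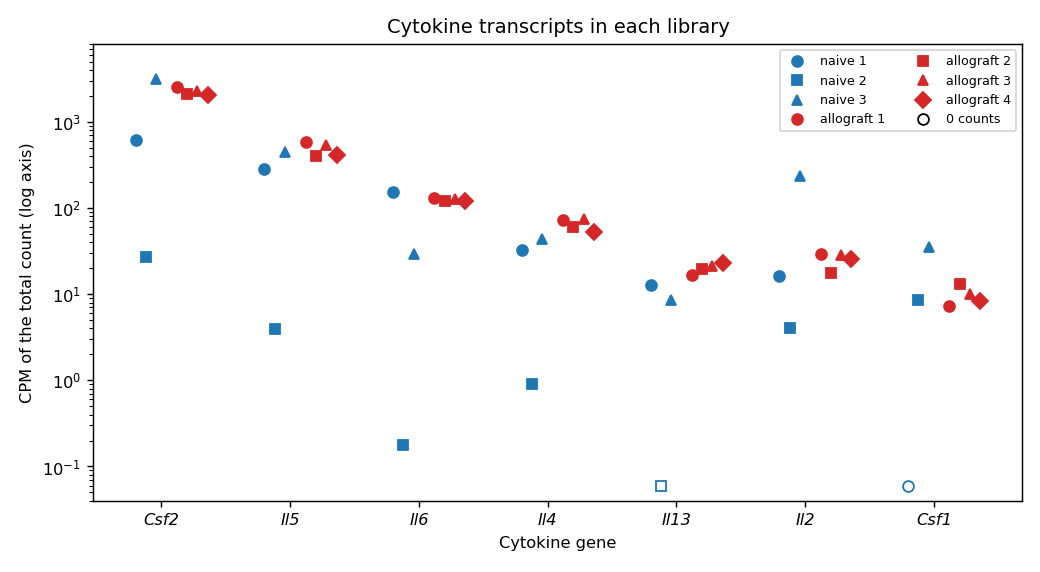
CPM of the 7 detected cytokines in each library on a log axis, naive in blue and allografts in red, with open symbols at the bottom for 0 counts. The 4 allografts lie close together for each gene, naive replicate 2 is lowest for 6 of the 7 genes, Csf1 excepted, and only Il4 and Il13 have all allografts above all naive libraries.

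The type 2 cytokines were also read against the ILC2 markers of the same library, since the summed level of these markers differed. Per 1000 CPM of the 8 markers, Il4 stood at 6.64, 5.33 and 6.503 CPM in naive replicates 1 to 3, a mean of 6.16 ± 0.720 (SD, n = 3). In the allografts it stood at 14.6, 10.97, 13.6 and 9.80, a mean of 12.3 ± 2.25 (SD, n = 4). The 3 naive libraries, which ranged from 0.901 to 44.0 CPM in Il4, lay close together on this scale, although naive replicate 2 held only 41 Il4 counts, and the allograft mean was 1.99 times theirs. Il5 stood at 58.6, 23.0 and 65.8 in the naive libraries and at 118, 73.1, 99.7 and 77.5 in the allografts. On this scale naive replicate 3 no longer lay within the allograft range of Il5. Il13 stood at 2.61, 0 and 1.25 in the naive libraries and at 3.42, 3.60, 3.87 and 4.30 in the allografts. Il4, Il5 and Il13 thus had every allograft above every naive library, 3 of 7 cytokines against 3.7% of all genes on the same scale, and 0 of 7 lay below (5.77%). The low marker sum of naive replicate 2 raises most other genes of that library on this scale, and without it 3 of 7 stood against 21.9% of genes above and 0 of 7 against 6.24% below. The gap was narrow for Il5, whose lowest allograft (73.1) lay near the highest naive library (65.8). Scaled to Gata3, Rora, Il7r and Icos alone, 4 of 7 cytokines, Csf2 included, had every allograft above (3.83% of genes) and 0 below (4.49%), and without naive replicate 2 the same counts stood against 21.1% and 4.92%. The closeness of the naive Il4 values depended on the markers. With these 4 they were 12.2, 6.47 and 7.92 in naive replicates 1 to 3, against 15.1 to 25.2 in the allografts. With the counts of the 8 markers as library size, a choice made after seeing the data, the edgeR log2 fold change was 0.99 for Il4 (adjusted p = 0.458), 0.91 for Il5 (0.464) and 1.55 for Il13 (0.447), beside a median of -2.70 over all genes on that scale.

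**Figure D3:**
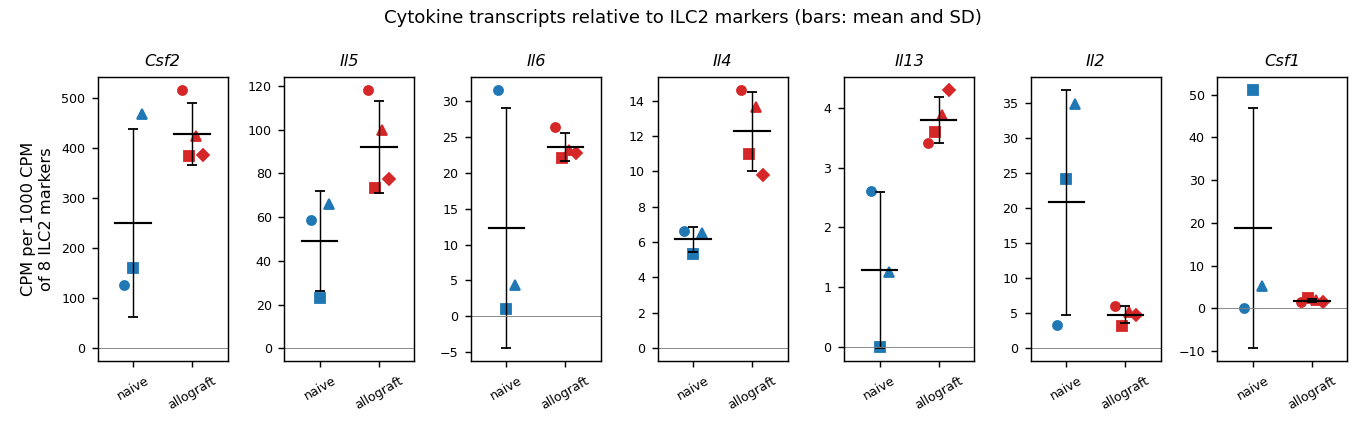
Each cytokine as CPM per 1000 CPM of the 8 ILC2 markers, with naive (blue) and allograft (red) libraries as points and mean and SD as black bars. Il4, Il5 and Il13 do not overlap between groups, and the 3 naive values of Il4 lie between 5.33 and 6.64.

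Genes of other cells moved partly with these groups. The 7 eosinophil genes summed to 0 to 26.8 CPM in the naive libraries and to 95.7 to 211 CPM in the allografts, where Prg2 held most of the sum. In 3 of the 7, Prg2 included, every allograft lay above every naive library, which held for 12.5% of all genes tested. Epx and Siglecf were at 0 in all naive libraries and at 0 to 11.2 and 0 to 3.45 CPM in the allografts, whereas Ear1 (8.99 CPM) and Ear2 (17.8 CPM) were highest in naive replicate 3. The 10 mast cell and basophil genes summed to 442, 75.7 and 782 CPM in the naive libraries and to 334 to 360 CPM in the allografts, so that their sum overlapped between groups. Hdc (33.5 to 39.8 CPM in the allografts, 7.41 to 10.1 CPM in naive hearts) and Fcer1a (9.42 to 20.3 and 0 to 5.60 CPM) had every allograft above, 2 of the 10. Cpa3 was at 153, 12.6 and 141 CPM in naive hearts and at 55.0 to 105 CPM in the allografts, and Ms4a2 was at 0 to 1.70 CPM throughout. Of the 10 T cell genes, 3 had every allograft above every naive library: Cd3g (175 to 219 CPM against 6.00 to 124 CPM), Trac (12.5 to 19.6 against 5.06 to 10.6) and Trbc2 (383 to 481 against 10.97 to 363). In the other T cell genes the groups overlapped. Cd3e was at 0.278 to 1.24 CPM in the allografts and 0.154 to 0.792 CPM in naive hearts. Cd3d was at 3.57 to 8.64 CPM, against 1.68, 2.48 and 32.5 CPM. Cd4 and Cd5 were at 0 to 0.7215 and 0 to 0.273 CPM in the allografts, with 11.6 CPM of Cd4 in naive replicate 3. Of 5 B cell genes, 3 had every allograft above, whereas Cd79b was highest in naive replicate 1 (117 against 34.6 to 47.8 CPM). None of the genes of these 4 lists had every allograft below (2.15% of all genes tested). The part of these cells in the Il4 and Il13 values was not tested.

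The balance between Il13 and Il5 was compared within libraries, where library size cancels. Per 100 Il5 counts the allografts held 2.89, 4.92, 3.88 and 5.55 Il13 counts, against 4.45, 0 and 1.90 in naive hearts. In naive replicate 2 the 0 stands beside only 177 Il5 counts. The log2 FPKM ratio of Il13 to Il5 (pseudocount 0.1) averaged -4.22 ± 0.413 in the allografts (SD, n = 4), against -4.69 ± 0.613 in naive hearts (SD, n = 3). The difference of 0.47 did not exceed the spread between libraries in an exact two-sided permutation test over 35 splits (p = 0.3143, smallest possible 0.0286). The difference was -0.51 with a pseudocount of 1 FPKM and 1.56 with 0.01 FPKM, and leaving out naive replicate 3 gave 0.14, leaving out naive replicate 1 gave 0.75.

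Il9 and Il3, growth factors of mast cells, were at or near 0. Il9 (ENSMUSG00000021538, chr13:56479277-56482246) had 13 counts in allograft replicate 3 and 0 in the other 6 libraries. Il3 had 0 counts in all 7 libraries, which allows at most 0.0566 to 0.103 CPM, although Csf2, its neighbour at 15.6 kb, reached 3154 CPM. The receptor gene Il9r was present at 8.13 to 12.7 FPKM in the allografts and at 14.2, 0.0304 and 18.6 FPKM in the naive libraries. The ligand was thus nearly undetected in libraries in which its receptor was detected.

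Csf2 and Il6 varied among naive libraries far more than among allografts. Csf2 reached 2532, 2119, 2295 and 2054 CPM in the allografts, against 613, 27.0 and 3154 CPM in naive hearts. The coefficient of variation was 131% in naive and 9.50% in allograft libraries. Naive replicate 3 lay above and naive replicates 1 and 2 below all allografts. The log2 fold change was 0.78 (SE 1.11, edgeR adjusted p = 0.900), 0.19 (SE 0.59, 0.909) without naive replicate 2, and 2.80 (0.273) without naive replicate 3. Single naive libraries thus set the size of this difference. Per 1000 CPM of the 8 ILC2 markers Csf2 was 126, 160 and 466 in naive and 384 to 515 in allograft libraries, which overlap.

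Il6, a cytokine of acute inflammation and B cell help, stood at 130, 122, 126 and 122 CPM in the allografts, against 154, 0.176 and 29 CPM in naive hearts. Naive replicate 1 lay above all allografts and the others below. The allografts differed little, with a coefficient of variation of 3.14%. The log2 fold change was 1.03 (SE 1.34, edgeR adjusted p = 0.883), 0.42 (SE 0.58, 0.761) without naive replicate 2 and 3.03 (0.346) without naive replicate 1.

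Il2 and Csf1 were highest in a naive library. Il2 (ENSMUSG00000027720, chr3:37120523-37125959) stood at 29.6, 17.7, 28.3 and 25.5 CPM in the allografts, against 16.3, 4.09 and 236 CPM in naive hearts. Naive replicate 3 thus exceeded all other libraries, and there Il2 ranked 292 among all genes by FPKM, against 2309 or lower in the other 6. The log2 fold change was -1.83 (SE 1.09, edgeR adjusted p = 0.679), -2.39 (SE 0.86, 0.210) without naive replicate 2, where its unadjusted p was 0.0297, and 1.19 (0.315) without naive replicate 3. Its direction therefore rested on naive replicate 3. In that library the 10 T cell genes summed to 1714 CPM, against 579 and 50.7 CPM in the other naive libraries and 1347 to 1552 CPM in the allografts. Lat alone held 629 CPM of this sum, against 282 to 318 CPM in the allografts. Cd4 stood at 11.6 CPM there and at 0 to 0.721 CPM in the other 6 libraries, and Cd3d at 32.5 against 1.68 to 8.64 CPM. In contrast, Cd3g (124 CPM), Trac (10.6) and Trbc2 (363) were lower there than in every allograft. Cd8a and Cd5 were at 0 there, and Cd3e was at 0.154 to 1.24 CPM in all 7 libraries. The part of T cell RNA in the Il2 value was not tested.

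Csf1 (ENSMUSG00000014599, chr3:107741048-107760469) stood at 7.22, 12.99, 10.2 and 8.38 CPM in the allografts, against 0, 8.64 and 35.6 CPM in naive hearts. The allograft range fell inside that of the naive pools. The log2 fold change was -0.79 (SE 1.63, edgeR adjusted p = 0.940), -0.96 (SE 1.85, 0.839) without naive replicate 2 and 0.61 (0.896) without naive replicate 3. Fibroblast genes, 6 in all, summed to 0.0566, 141 and 114 CPM in the naive libraries and 15.1 to 71.5 CPM in the allografts. Macrophage and neutrophil genes, 10 in all, summed to 2.49, 304 and 466 CPM and to 190 to 296 CPM. In naive replicate 3, where Csf1 was highest, single genes held most of both sums. Lyz2 stood at 432 CPM there, beside C1qb at 22.9 and Csf1r at 10.99 CPM, while Adgre1, Cd68, C1qa, S100a8 and S100a9 were at 0. Of the fibroblast genes in that library, Dcn stood at 82.5 and Col1a2 at 26.4 CPM, while Col3a1, Pdgfra and Lum were at 0. The naive library with no Csf1 count was also the one with nearly no transcripts of either list, and the part of those cells was not tested.

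**Figure D4:**
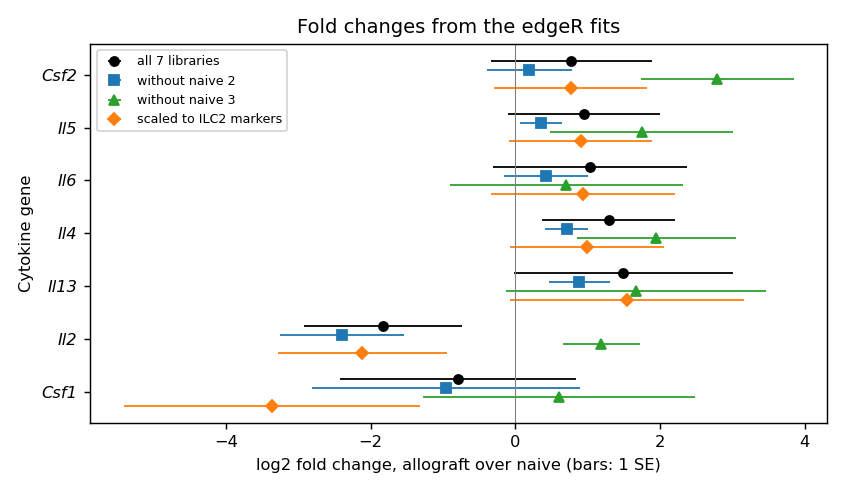
Log2 fold changes of allograft over naive with 1 SE for the 7 tested cytokines from edgeR, with all libraries, without naive replicate 2, without naive replicate 3 and scaled to the ILC2 markers. Il4, Il5, Il13, Il6 and Csf2 are above 0 in all 4 fits, and Il2 and Csf1 change sign without naive replicate 3.

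Over the 7 tested cytokines the median log2 fold change was 0.95, beside -0.01 over all genes tested. Without naive replicate 2 it was 0.36, beside 0.23. Of the 7, 5 had a positive value in both fits.

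Receptor transcripts of the 9 cytokines ranged from abundant to undetected. All 3 chains of the interleukin 2 receptor were present. Il2rg, the common gamma chain also used for interleukins 4 and 9, had 490 to 755 FPKM in the allografts, Il2ra had 48.1 to 53.7 and Il2rb 38.2 to 48.8. Il4ra, shared by interleukins 4 and 13, had 18.0 to 20.1 FPKM in the allografts and 6.41, 1.62 and 38.7 FPKM in the naive libraries. In contrast, Il13ra1 had 0.290 to 0.978, Il5ra 0 to 0.376, Il6ra 0.173 to 0.400 and Csf1r 0.0955 to 0.417 FPKM in the allografts, and Il13ra2 was at 0 in all libraries. The GM-CSF receptor chain Csf2ra had 5.02 to 6.45 FPKM and its signalling partner Csf2rb 0.0826 to 0.287 FPKM. The sorted cells of the allografts thus held Csf2, Il5 and Il13 transcripts at high or moderate levels beside few transcripts of Csf2rb, Il5ra and Il13ra1. Naive replicate 2 differed, with 9.43 FPKM of Il13ra1 beside 0 of Il13 and 2.32 of Il5.

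Of the 15 receptor genes, 14 were tested and 0 passed, 0 also at an unadjusted p under 0.05, with a median log2 fold change of 0.03. The smallest edgeR p-values belonged to Csf1r (log2 fold change -3.53, adjusted p = 0.615), Il6st (-1.70, 0.727) and Il13ra1 (-2.56, 0.814). Without naive replicate 2 the value of Csf1r was -1.995 (0.621) and that of Il6st -0.30 (0.926). In that fit, 1 receptor passed, against 3.1% of genes. This was Il13ra1, whose sign turned to positive (adjusted p = 0.0443) and which had 0 counts in naive replicates 1 and 3 and 1.25 to 4.22 CPM in the allografts, whereas naive replicate 2 had 38.2 CPM.

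Regulators of cytokine transcription were given by a list of 20 genes, all tested. With edgeR 0 passed, 2 had an unadjusted p under 0.05 (10.3% of all genes), both higher, and the median log2 fold change was 0.41 (-0.15 without naive replicate 2). Stat5a, a signal transducer of interleukins 2 and 7 and of GM-CSF, reached 36.5, 76.4, 67.3 and 63.8 CPM in the allografts, against 22.0, 7.71 and 18.6 CPM in naive hearts, without overlap. Its log2 fold change was 1.79 (SE 0.42, edgeR adjusted p = 0.161), 1.54 without naive replicate 2 (0.0894), and it passed with DESeq2 (adjusted p = 0.000832), as did 6.66% of genes. Irf4, a lymphocyte activation factor needed for type 2 cytokine output in T cells, reached 45.5, 56.8, 41.5 and 55.8 CPM in the allografts, against 3.17, 1.165 and 0 CPM in naive hearts. Its log2 fold change was 4.93 (SE 1.496, edgeR adjusted p = 0.306, DESeq2 adjusted p = 0.00593) and 4.95 without naive replicate 2 (0.210). Stat6, the interleukin 4 signal transducer, came next (0.75, SE 0.33, edgeR adjusted p = 0.499), with 0.54 (0.329) without naive replicate 2. Gata3, which binds the type 2 cytokine locus, had 654, 34.8 and 970 CPM in naive and 706 to 876 CPM in allograft libraries. In 6 of the 20 regulators every allograft lay above every naive library (12.5% of all genes), and in 0 below (2.15%). Without naive replicate 2, 6 lay above (21% of genes) and 1 below (7.15%).

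Genes in and beside the cytokine cluster did not share 1 pattern. Of 10 neighbours listed, 9 were found and 8 tested, 0 passed with edgeR, 2 had an unadjusted p under 0.05 (10.3% of all genes) in opposite directions, and the median log2 fold change was -0.67 (0.70 without naive replicate 2). Irf1, an interferon-induced factor between Il5 and Csf2, had 150, 42.0 and 142 CPM in naive and 58.1, 48.1, 46.6 and 31.0 CPM in allograft libraries, so that naive replicate 2 lay among the allografts. Gm17334, annotated within Irf1 on the opposite strand, had 3703, 1909 and 4101 counts in the naive libraries, where Irf1 had 7934, 1910 and 6201, and 2123, 1559, 3942 and 2904 in the allografts, where Irf1 had 2558, 1560, 1904 and 902. The ratio of both thus differed between libraries, with Gm17334 above Irf1 only in allograft replicates 3 and 4. Without strand their reads cannot be told apart. The Irf1 log2 fold change was -1.38 (SE 0.40, edgeR adjusted p = 0.277), and it passed without naive replicate 2 (-1.71, SE 0.29, 0.0437), as 1 of 2 neighbours (3.1% of genes). Sept8, a septin gene, had a value of 1.22 (SE 0.38, 0.323), and 0.95 (0.17) without naive replicate 2. Slc22a4, a cation transporter gene, had -4.54 (0.700), which rested on 713 counts in naive replicate 2 beside 0 in the other naive libraries and 0 to 27 in the allografts, and the sign turned without that library. Irf1 fell, without naive replicate 2, in the interval between Il5 and Csf2, whose own values did not pass in any fit run. Slc22a5, a carnitine transporter gene, also passed without naive replicate 2 (edgeR adjusted p = 0.0372), with 0 counts in naive replicates 1 and 3, 26.7 CPM in naive replicate 2 and 4.23 to 7.06 CPM in the allografts. Rad50, whose body holds a control region of the type 2 cytokine genes, had 166, 18.6 and 35.8 CPM in naive and 114 to 165 CPM in allograft libraries.

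**Figure D5:**
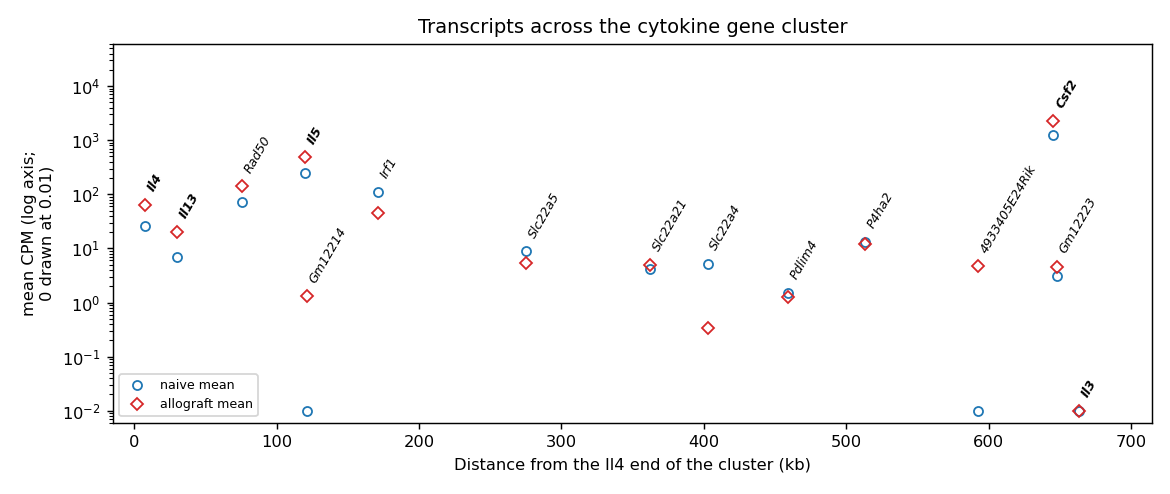
Mean CPM of naive (circles) and allograft (diamonds) libraries along the cytokine cluster, by distance in kb, on a log axis with 0 drawn at 0.01. Shown are protein-coding genes, without Gm12216 and Gm17334, and 3 non-coding genes. Il4, Il13, Il5 and Csf2 are detected, Il3 at the right end is at 0 in both groups, and Irf1 has a higher naive mean (111 CPM) than allograft mean (46.0 CPM).

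The genes of 3 cytokines overlap other annotated genes on the opposite strand, and the use of strand in counting is not given in the sources used here. Gm12214 overlaps Il5 by 666 bases with 0 to 77 counts, Gm12223 overlaps Csf2 by 2068 bases with 0 to 354 counts, and Adad1 overlaps Il2 by 1408 bases with 0 to 45 counts. These counts are small beside the highest counts of the cytokines, 25562 for Il5, 137469 for Csf2 and 10305 for Il2. For Il2 the gap was narrower within allograft replicate 2, which had 45 counts of Adad1 beside 574 of Il2.

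The patterns of the cytokines over the 7 libraries were compared with 9656 genes of an average log2 CPM of at least 3. Csf2 was most like Ltb, the lymphotoxin beta gene (Pearson's r = 0.9992), Il5 like Ifi209 (0.9986) and Il13 like Laptm5 (0.9986). These values share the low point of naive replicate 2. Over the 6 libraries without it the nearest genes were others: Lyz2 for Csf2 (0.9991), Stxbp2 for Il5 (0.9814) and Tubgcp4 for Il13 (0.9947). For Il4 the nearest gene over these 6 libraries was Sdf2 (0.9911). For Il2 the chemokine receptor gene Ccr9 was among the 3 nearest in both cases (0.9927 over 7 libraries and 0.9937 over 6). With so many genes and so few points, a high r is a description only.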

How the data were processed

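RNA-seq of sorted mouse heart ILC2s was taken from 2 tables that the authors deposited, raw counts per gene and FPKM. FastQC 0.11.5, STAR 2.5.3a, StringTie 1.3.1c, DESeq2 1.16.1 and the build mm10 are named, without roles, in the submitters' processing notes. Annotation and strand use are not given in the sources used here. Per the labels' protocols, full-length cDNA was amplified with a single-cell kit. Amplified cDNA carries no stated molecular identifiers, so reads are not independent molecules, and limits cover counting error only. Deposited counts were tested with edgeR 4.0.16 (R 4.3.3): TMM, filterByExpr, quasi-likelihood F test, no covariate, Benjamini-Hochberg adjustment over all 17015 genes, threshold 0.05, SE from the F value. Per-library CPM used the deposited totals. Deposited FPKM served for levels between genes. DESeq2 1.42.0 and limma 3.58.1 gave alternatives. Scripts were tested on simulated data that held no library standing apart as naive replicate 2 does, so error rates with such a library were not tested. Positions come from GENCODE M21 (GRCm38, the same build as mm10), and promoters from RefSeq (9 of 9 cytokines matched).

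Sample titles gave the groups and the numbers of the replicates. Nothing beyond the pooling says that libraries of a group were processed independently, so p-values measure the spread between these pools. The cytokines and the lists of receptors, regulators, neighbours and cell type markers were chosen with earlier results of these data known, so their directions are not independent evidence. All 9 cytokines are named. In the other lists, genes past the threshold and otherwise up to 3 with the smallest p are named, and further genes were named after their values were seen. Likeness was Pearson's r of log2 CPM (prior count 2), over genes with an average of at least 3. The gene nearest to Il4 over 7 libraries is not reported here.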

Additional observations from a re-analysis of the deposited data

Results flagged for a closer look

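Il9 in allograft replicate 3, at 0.318 CPM, stood far from the other 3 allografts, which were all at 0. This rests on 13 counts. Of 16 sets of cytokine values examined in the 4 allografts, 1 was flagged, where chance gives 0.8 for normally spread, independent values. The sets were not independent, since they held the same genes as CPM and relative to ILC2 markers. A gene with counts in only 1 of the 4 allografts is always flagged by this rule, so the flag adds nothing to the counts.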

How the results depend on the processing

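The count of cytokines past the threshold was 0 under all 14 alternatives run. Over all genes it was 6 in the main analysis, 1012 with DESeq2, 1 with limma voom and sample quality weights, 0 (4705 at an unadjusted p under 0.05) with ILC2 marker counts as library size, added after seeing the data, and 0 to 560 when single libraries were left out: 560 with naive replicate 2 omitted, 107 with naive replicate 1 omitted, 7 with naive replicate 3 omitted, and 0 with each allograft omitted in turn (848 to 1074 at an unadjusted p under 0.05). DESeq2 called 2 regulators (Irf4 and Stat5a) and 2 neighbours (Irf1 and Sept8), against 6.66% of genes. With single libraries left out, 0 to 1 receptors and 0 to 2 neighbours passed. Il4, Il5, Il13, Il6 and Csf2 kept a positive log2 fold change under all 14 alternatives (0.71 to 2.18, 0.36 to 2.03, 0.89 to 2.94, 0.42 to 3.03 and 0.19 to 2.80). Adjusted p-values of the 7 cytokines ran from 0.208 to 1. The unadjusted p of Csf2 was 0.0167 with limma voom (log2 fold change 2.36) and 0.0367 with edgeR without naive replicate 3. That of Il2 was 0.0297 with edgeR without naive replicate 2. Csf1 turned positive with limma voom (5.44) and without naive replicate 3 (0.61; -1.37 to 0.61 over omitted libraries), and Il2 with limma voom (0.10) and without naive replicate 3 (1.19; -2.39 to 1.19). DESeq2 gave no adjusted p for Il2. The difference in the log2 ratio of Il13 to Il5 was -0.51 with a pseudocount of 1 FPKM, 1.56 with 0.01 FPKM, and 0.14 to 0.75 over omitted libraries. With Gata3, Rora, Il7r and Icos as the only markers, allograft minus naive was 10.8 for Il4, 76.0 for Il5 and 3.92 for Il13 (CPM per 1000 CPM of markers), a denominator smaller by construction, and Csf2 then also had every allograft above every naive library (4 of 7 cytokines, against 3.83% of genes). The median log2 fold change of all genes was -0.01 in the main analysis, -0.20 with DESeq2 size factors, 0.64 with limma voom and 0.55 with the replicate block. The cause of the other changes was not tested.

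Same-numbered libraries did not deviate together (correlations 0.017, -0.018 and 0.037 for numbers 1 to 3), and 0 of 3 allografts correlated best with the naive library of its own number. With a replicate block, 0 genes passed, 252 at an unadjusted p under 0.05, and Csf1 was at 0.78.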

Other observations

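A pair of non-coding genes beside the clustered cytokines, chosen after their values were seen, had counts only in the allografts, where more genes were detected than in naive replicates 1 and 3. Every allograft lay above every naive library in 12.5% of all genes tested. The lincRNA gene 4933405E24Rik (ENSMUSG00000086209, chr11:54177772-54213285), on the Il5 side of Csf2, had 0 counts in all 3 naive libraries and 303, 193, 107 and 92 counts in allograft replicates 1 to 4. Gm12214, antisense to Il5, had 0 counts in the naive libraries and 69, 22, 77 and 32 counts in the allografts, and naive replicate 3 had 0 of it beside 19386 counts of Il5. In contrast, Gm12223, antisense to Csf2, had 58, 0 and 354 counts in the naive libraries and 136 to 182 counts in the allografts. Whether these counts stem from transcripts of their own strand was not tested.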
